A study of Mus musculus with 61 samples.

Results

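Heterotrimeric G proteins and the regulators that switch them off were followed in mouse pancreatic duct cells reprogrammed towards endocrine fates. A G protein is an alpha subunit bound to a beta-gamma dimer. An activated receptor loads the alpha subunit with GTP, alpha and beta-gamma then separate and act on enzymes and channels, and RGS proteins end the signal by speeding GTP hydrolysis. The alpha subunits fall into classes named Gs, Gi/o, Gq/11 and G12/13, and in islet cells Gs-coupled receptors are known to favour hormone secretion while Gi/o-coupled receptors restrain it. The genes were chosen by symbol (Gna, Gnb, Gng, Gngt and numbered Rgs genes), which gave 54 of the 46078 genes counted, made up of 16 alpha, 5 beta, 12 gamma and 21 RGS genes.

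The cells were C57BL/6 mouse ductal organoid cells carrying doxycycline-inducible lentiviral vectors for Ngn3 (tagged with GFP), Pdx1 (LSSOrange) and MafA (tdTomato). After 8 days of doxycycline, pools of 50 cells were sorted by colour, so each group is defined by its reporters. There were 12 conditions, namely Pdx1, MafA, Pdx1 + MafA, Ngn3 + Pdx1, Ngn3 + MafA and Ngn3 + Pdx1 + MafA, each from cultures given wild-type Ngn3 (WT) or a phospho-mutant Ngn3 with serines changed to alanine (6SA). In both kinds of culture the Ngn3-negative cells carried Pdx1, MafA or both, and uninfected cells and cells with Ngn3 alone were not analysed here. Of 61 libraries, 58 had over 1000000 counts on genes and were kept, and summing technical repeats gave 32 samples, 17 Ngn3-positive and 15 Ngn3-negative, with 2 or 3 per condition. The labels put replicates 1 and 2 at passage 2 and replicate 3 at passage 5. Nothing given here says that the replicates came from separate animals, so p-values measure the spread between these samples.

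Levels are given as CPM, the count divided by the sample's TMM-scaled total on genes and multiplied by 1000000. The samples held 2579583 to 19461008 counts on genes, and 3 counts, taken as the limit of detection, stood for 0.136 to 1.01 CPM in Ngn3-positive samples and 0.168 to 0.925 CPM in Ngn3-negative samples. Neurog3, which encodes Ngn3, was at 7.87 to 329 CPM in the Ngn3-positive samples and at 0 to 0.788 CPM in the others, with no overlap. The partner labels were less clear in the counts. Pdx1 was at 9.84 to 191 CPM in the Ngn3-positive samples labelled with Pdx1 and at 3.21 to 30.6 CPM in those without, and at 11.2 to 37.7 against 4.22 to 19.3 CPM in the Ngn3-negative samples. Mafa was at 0.306 to 12.7 CPM with its label and 0 to 0.116 CPM without it in Ngn3-positive samples, and at 0 to 4.21 against 0 to 0.0902 CPM in Ngn3-negative samples, where 1 of 11 labelled samples had no Mafa count. The partner groups are those of the labels. The lowest Neurog3 value was in replicate 3 of WT Ngn3 + Pdx1, a passage 5 sample. Of 10 duct markers, 6 were lower with Ngn3, with a summed level of 1563 to 17958 CPM against 14545 to 59895 CPM. All 10 endocrine markers were higher, with a summed level of 1125 to 14783 CPM against 23.5 to 107 CPM.

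Of the 54 genes, 48 entered the test, which required detection in at least 5 libraries (15 alpha, 5 beta, 11 gamma and 17 RGS genes). Gngt1, Rgs18 and Rgs21 had no count in any sample, and Rgs1, Rgs13 and Gnat3 had too few counts to be tested. Over all backgrounds, 12 of the 48 were higher and 4 lower in Ngn3-positive than in Ngn3-negative cells (edgeR's quasi-likelihood test, adjusted p under 0.05). Among all 24004 genes tested, 11.1% were called higher and 10.5% lower. The higher genes were Gnao1, Gnaz, Gnaq, Gna12, Gnb2, Gng2, Gng3, Gng4, Rgs4, Rgs7, Rgs9 and Rgs17, and the lower genes were Gnai3, Rgs2, Rgs10 and Rgs16. The median log2 fold change was 0.43 over the 48 genes and 0.07 over all genes tested. Because the samples are bulk pools, fewer cells of a type and less RNA per cell cannot be told apart.

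The promoters of Gng4 and Rgs4, 2 of the genes with the highest mean CPM in Ngn3-positive cells among the 12 called higher, hold the letters of an E-box, the motif class bound by basic helix-loop-helix factors such as Ngn3. The 250 bases before the RefSeq start site (GRCm38.p6, read 5′ to 3′ on the gene's strand) are shown for these genes and for Rgs9, the higher members in which CAGATG or its reverse complement CATCTG was found. Capitals mark those letters.

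Gng4, chr13:13783809-13784058, plus strand: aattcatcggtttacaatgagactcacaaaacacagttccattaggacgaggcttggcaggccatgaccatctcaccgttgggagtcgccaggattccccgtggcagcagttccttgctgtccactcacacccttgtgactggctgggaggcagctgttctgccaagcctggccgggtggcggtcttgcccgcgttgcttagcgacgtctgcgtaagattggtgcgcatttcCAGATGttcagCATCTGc

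Rgs4, chr1:169747643-169747892, minus strand: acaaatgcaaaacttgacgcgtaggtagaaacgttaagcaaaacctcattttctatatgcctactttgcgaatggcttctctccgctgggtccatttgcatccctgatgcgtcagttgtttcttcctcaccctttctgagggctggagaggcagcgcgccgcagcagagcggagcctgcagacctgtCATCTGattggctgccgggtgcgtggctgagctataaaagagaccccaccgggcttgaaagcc

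Rgs9, chr11:109298182-109298431, minus strand: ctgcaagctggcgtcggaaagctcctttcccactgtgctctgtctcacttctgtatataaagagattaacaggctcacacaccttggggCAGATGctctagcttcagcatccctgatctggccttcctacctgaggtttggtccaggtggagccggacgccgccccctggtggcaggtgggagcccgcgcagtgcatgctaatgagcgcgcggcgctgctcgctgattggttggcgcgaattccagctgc

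The Gng4 matches began 18 and 7 bases before the start, the Rgs4 match 63 bases and the Rgs9 match 161 bases before it. A second Gng4 start site and the start site of Gnao1 had no match in their windows. Windows were found for 40 of the 54 genes and for 11 of the 12 higher genes. CAGATG in either direction was in 8 of the 53 windows of these genes and in 14.4% of all 32851 windows. The palindromic E-boxes CAGCTG and CATATG were in 6 and 2 of the 53 windows and in 13% and 3.46% of all windows. A match of letters is a description of the sequence and not a binding site.

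**Figure D1:**
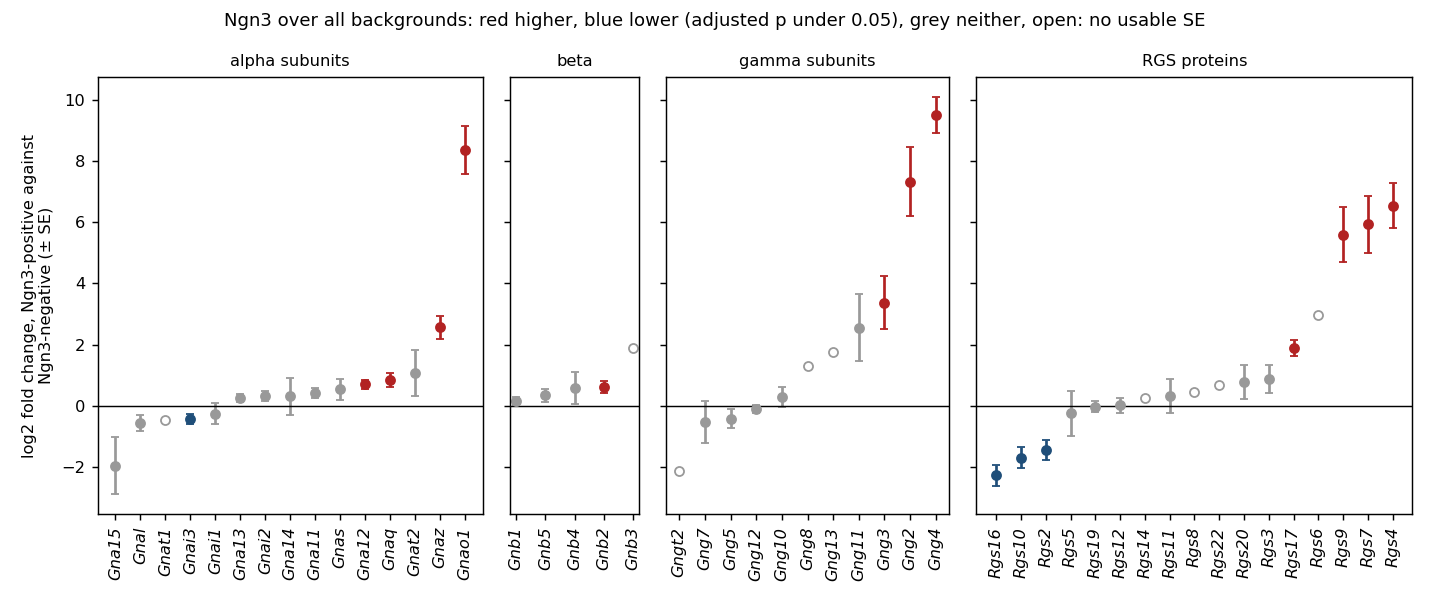
Log2 fold change (vertical axis, ± SE) between Ngn3-positive and Ngn3-negative samples over all backgrounds for the 48 tested genes, by family, with red points higher, blue points lower and grey points neither. Gng4 (9.51), Gnao1 (8.37) and Gng2 (7.33) stand highest and Rgs16 (-2.28) lowest, while 9 sparse genes drawn open have no usable SE. The values of Gnao1 and Gng2 depend on the prior count, because some conditions without Ngn3 had no count of them.

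Among the alpha subunits, 4 of 15 tested were higher and 1 was lower with Ngn3. Gnao1 encodes Go alpha, the main alpha subunit of neurons and neuroendocrine cells. The gene (ENSMUSG00000031748) lies on chr8:93809966-93969388 (mm10, plus strand). In the 15 Ngn3-negative samples it was at 0 to 1.30 CPM (median 0), and in the 17 Ngn3-positive samples at 2.27, 26.6 and 111 CPM (lowest, median and highest). Every Ngn3-positive sample was above every Ngn3-negative sample, a separation shared by Gng4 and by 0.542% of all genes tested. The mean was 44.2 ± 37.5 CPM (SD, n = 17) against 0.166 ± 0.342 CPM (n = 15), a ratio of 267, and the adjusted p was 1.02e-08. The fitted log2 fold change of 8.37 ± 0.78 (SE) depends on the prior count, because the WT MafA samples had no Gnao1 count.

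Gnaz encodes Gz alpha, a Gi/o-class subunit that inhibits adenylyl cyclase and hydrolyses GTP slowly. It was at 0.980, 3.81 and 5.59 CPM (lowest, median and highest) without Ngn3 and at 1.21, 18.2 and 84.6 CPM with Ngn3. Of the 17 Ngn3-positive samples, 15 were above all others, and the remaining pair were the passage 5 Ngn3 + MafA samples. The log2 fold change was 2.56 ± 0.37 (adjusted p = 6.42e-06).

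The remaining called alpha genes moved less. Gnaq, which encodes the phospholipase C-activating Gq alpha, was at 20.7, 52.1 and 91.8 CPM without Ngn3 and at 46.3, 85.0 and 193 CPM with it, and its log2 fold change was 0.84 ± 0.24 (adjusted p = 0.0106). Gna12, the RhoGEF-activating G12 alpha, was at 23.7, 47.8 and 92.0 CPM without and 43.2, 79.4 and 173 CPM with Ngn3, with a log2 fold change of 0.70 ± 0.15 (adjusted p = 0.00106). The ranges of both genes overlapped between the groups. Gnai3, an inhibitory Gi alpha and the alpha gene with the highest mean CPM, was at 133, 270 and 390 CPM without Ngn3 and at 119, 182 and 328 CPM with it. Its log2 fold change was -0.44 ± 0.16 (adjusted p = 0.0445), and 5 of the 12 alternative settings kept the call.

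Gnai2 and Gna11, the alpha genes next in level, did not pass the test. Gnai2 had means of 193 ± 36.3 CPM (SD) with Ngn3 and 156 ± 49.0 CPM without (log2 fold change 0.30 ± 0.17, adjusted p = 0.231). Gna11, the close relative of Gnaq, had means of 131 and 96.8 CPM (0.42 ± 0.17, adjusted p = 0.0832). Gnas, which encodes Gs alpha, was counted at only 0.656 to 10.8 CPM, and 22.0% of its exon length overlaps antisense genes, so its level is uncertain. Per kilobase of exon, the Gi/o genes held 61.7% (median, 48.5% to 70.8%) of counted alpha transcripts with Ngn3 and 67.0% (55.0% to 78.8%) without, and Gnao1 alone reached at most 4.30%. The uncertain count of Gnas enters this sum, so the shares hold only for the alpha reads as counted.

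Among the beta subunits, Gnb2 alone of 5 passed the test. Gnb2 was at 40.6, 93 and 166 CPM without Ngn3 and at 59.4, 125 and 248 CPM with it, with overlapping ranges and a log2 fold change of 0.61 ± 0.18 (adjusted p = 0.0144). Without replicate 1 in each condition, Gnb2 was no longer called (0.24 ± 0.21, adjusted p = 0.716). Gnb1, with the highest level of all 54 genes per kilobase, had means of 472 ± 109 CPM (SD) with and 430 ± 96.4 CPM without Ngn3 (log2 fold change 0.15 ± 0.14, adjusted p = 0.595). Gnb5, the unusual beta subunit that pairs with R7-class RGS proteins, had means of 33.6 and 27.5 CPM (0.33 ± 0.22, adjusted p = 0.345). Gnb1 made up a median of 69.2% of beta transcripts per kilobase with Ngn3 and 73.7% without.

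Among the gamma subunits, 3 of 11 tested were higher and none was lower. Gng4 (ENSMUSG00000021303, chr13:13784059-13827896, mm10, plus strand) encodes a gamma subunit known from brain. It was at 0, 0.168 and 1.85 CPM (lowest, median and highest) in the Ngn3-negative samples and at 16.2, 156 and 617 CPM in the Ngn3-positive samples. The groups were fully separated in these samples, with means of 0.349 ± 0.528 and 181 ± 163 CPM (SD), a ratio of 517, and a log2 fold change of 9.51 ± 0.59 (adjusted p = 4.53e-12). Over the Ngn3-negative samples only 34 Gng4 counts were seen in all, against 33086 in the Ngn3-positive samples.

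Gng4 made up a large share of the gamma transcripts with Ngn3. Per kilobase of exon, it held 6.57%, 40.0% and 68.0% (lowest, median and highest) of the summed gamma level with Ngn3, and 0% to 0.786% without. The share of Gng12 was 39.4% (28.8% to 60.2%) with Ngn3 and 66.4% (46.7% to 82.6%) without, and that of Gng5 was 10.8% (0.970% to 36.4%) and 26.6% (10.2% to 48.0%). The summed gamma level itself was 71.8 to 272 CPM per kilobase with Ngn3 and 63.2 to 92.6 without. The counts of Gng3, Gng10 and Gng13, which are uncertain for the overlaps given below, enter this sum. Gng12 and Gng5, both widely expressed, had log2 fold changes of -0.11 ± 0.12 (adjusted p = 0.681) and -0.42 ± 0.30 (adjusted p = 0.404).

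**Figure D2:**
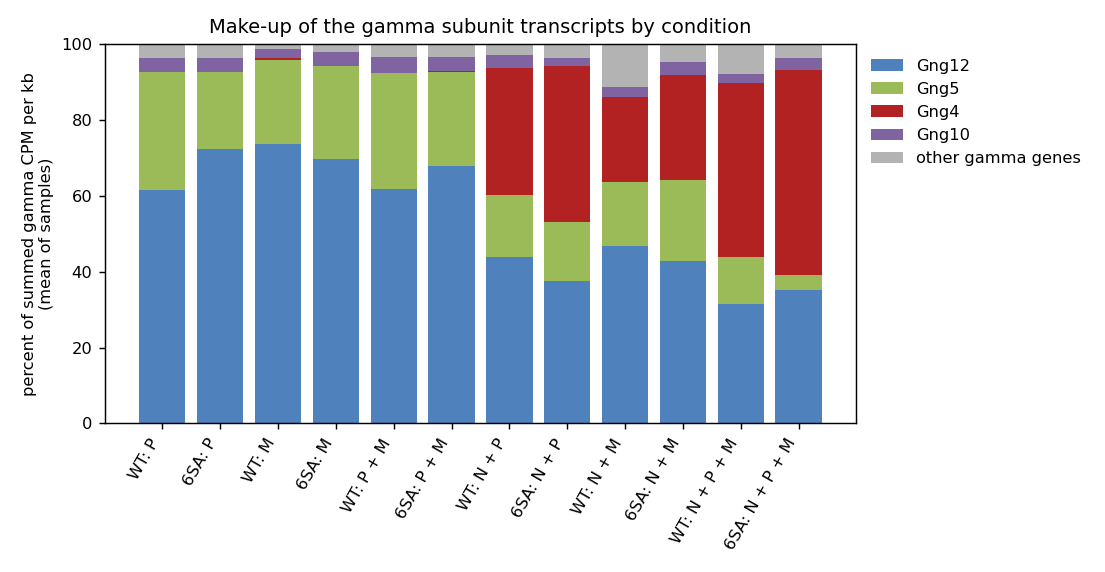
Make-up of gamma subunit transcripts in the 12 conditions (horizontal axis; N Ngn3, P Pdx1, M MafA), as the mean percent of summed gamma CPM per kilobase of exon over the samples of a condition. Gng4 is under 1% in the 6 conditions without Ngn3, and its mean is highest in 6SA N + P + M, at 54.0%.

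Gng2 and Gng3 were higher, from near the limit of detection. Gng2, a brain-enriched gamma subunit, was at 0 CPM in 14 of 15 Ngn3-negative samples and at 0, 3.44 and 16.5 CPM in the Ngn3-positive samples. Its pooled level was 79.6 times higher with Ngn3 (95% counting interval 43.3 to 166; adjusted p = 6.92e-05). Gng3, a neuronal gamma subunit, reached 11.2 CPM in replicate 1 of WT Ngn3 + Pdx1 + MafA but was at 0 to 2.30 CPM in the other Ngn3-positive samples and at 0 to 0.321 CPM without Ngn3 (adjusted p = 0.00526). Without replicate 1 in each condition, the change of Gng2 and of Gng3 over all backgrounds could not be estimated (adjusted p = 1.0 for both). Of the exon length of Gng3, 24.2% overlaps Bscl2, so the value of Gng3 is uncertain. Gng10 and Gng13 share 72.0% and 51.6% of their exon length with other genes and are uncertain for the same reason.

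Among the RGS genes, 4 of 17 tested were higher and 3 lower, so members of this family moved in both directions. By class, the R4 group had 1 higher and 2 lower of 6 tested, the RZ group 1 higher of 3, the R7 group 2 higher of 4 and the R12 group 1 lower of 3. Rgs4 and Rgs16, small R4-class proteins acting on Gi/o and Gq alpha, moved in opposite directions.

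Rgs4 (ENSMUSG00000038530) lies on chr1:169741477-169747642 (mm10, minus strand). It was at 0, 0.925 and 16.8 CPM without Ngn3 and at 2.13, 97.4 and 828 CPM with Ngn3. Of the 17 Ngn3-positive samples, 14 were above all others, and the 3 that were not were passage 5 samples at 2.13, 2.42 and 5.81 CPM. The log2 fold change was 6.55 ± 0.75 (adjusted p = 2.17e-07). Among the 8 Ngn3-positive samples with technical repeats, these differed by up to 6.13-fold for Rgs4, in replicate 1 of 6SA Ngn3 + Pdx1 + MafA (234 to 1434 CPM on plain totals), and by up to 1.64-fold for Gng4. The highest Ngn3-negative value of Rgs4, 16.8 CPM in replicate 1 of 6SA Pdx1, came from repeats at 1.23, 3.23 and 42.3 CPM, and repeats of replicate 1 of WT Pdx1 + MafA were at 0.306, 8.91 and 16.8 CPM.

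Rgs17, an RZ-class member known to act on Gz and Go alpha, was at 8.66, 28.9 and 44.6 CPM without Ngn3 and at 26.4, 102 and 223 CPM with it. The log2 fold change was 1.89 ± 0.26 (adjusted p = 3.17e-06), and 13 of 17 Ngn3-positive samples were above all others. Rgs7 and Rgs9, R7-class proteins of neurons and photoreceptors that bind Gnb5, had medians of 0 CPM without Ngn3 and of 4.42 and 4.65 CPM with it. Rgs7 ranged from 0 to 44.5 CPM and Rgs9 from 0 to 20.7 CPM in the Ngn3-positive samples, while the Ngn3-negative samples reached 2.75 and 3.08 CPM. Their fitted log2 fold changes were 5.93 ± 0.94 (adjusted p = 3.49e-05) for Rgs7 and 5.60 ± 0.89 (adjusted p = 3.33e-05) for Rgs9, and the pairs of ranges overlapped. These fits also depend on the prior count, because the WT MafA samples had no count of either gene. The ratios of means were 21.4 for Rgs7 and 14.4 for Rgs9.

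Rgs16 (ENSMUSG00000026475, chr1:153740349-153745468, mm10, plus strand) fell with Ngn3. It was at 106, 208 and 418 CPM without Ngn3 and at 0.585, 45.7 and 177 CPM with it, and 15 of 17 Ngn3-positive samples were below all others. Means were 226 ± 93.8 CPM (SD) without and 58.2 ± 45.8 CPM with Ngn3, 3.89 times higher without Ngn3, and the log2 fold change was -2.28 ± 0.34 (adjusted p = 1.14e-05). Rgs2, which acts mainly on Gq alpha, was at 134, 292 and 1066 CPM without and 9.36, 106 and 520 CPM with Ngn3, with overlapping ranges and a log2 fold change of -1.46 ± 0.32 (adjusted p = 0.00134). Rgs10, an R12-class protein, was lower at 2.52, 9.90 and 19.8 CPM without and 0.0868, 3.59 and 7.71 CPM with Ngn3 (-1.70 ± 0.34, adjusted p = 0.000518).

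In the 14 pairs of samples with the same culture, partner factors and replicate number, Gng4, Gnao1, Rgs4 and Gnaz were higher with Ngn3 in all 14, and Rgs16 and Rgs2 were not higher in any. Rgs17 was higher in 13 and Gnai3 in 3 of the 14 pairs. The replicate numbers did not qualify as a pairing, as given in the part on processing, so these counts only describe the samples. The share of all genes higher in all 14 pairs was not computed.

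**Figure D3:**
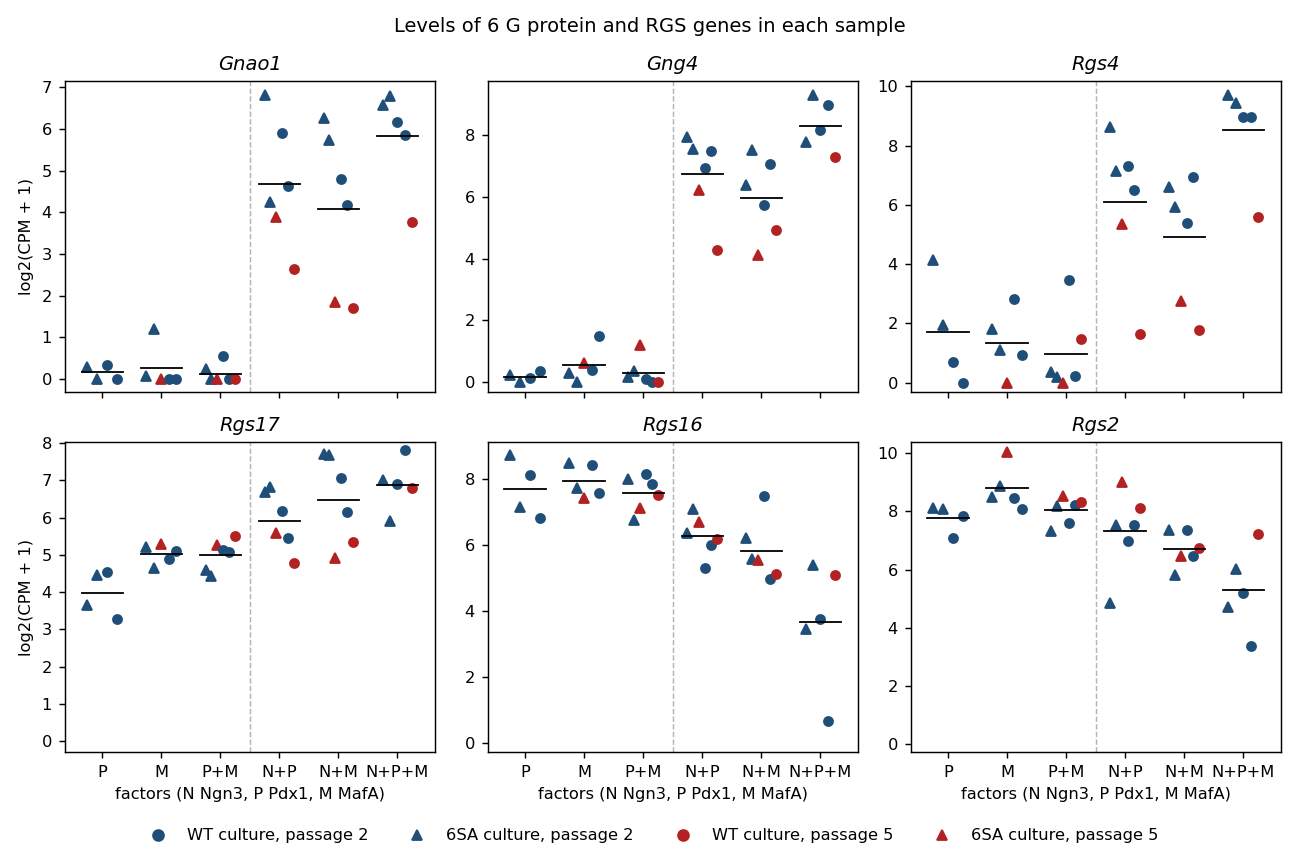
Levels (vertical axis, log2(CPM + 1)) of 6 genes in each of the 32 samples by factors, with circles for WT and triangles for 6SA cultures, blue for passage 2 and red for passage 5, and bars at the means. Gnao1 and Gng4 separate fully across the dashed line that divides samples without and with Ngn3, the passage 5 Ngn3-positive samples sit low for Gnao1, Gng4 and Rgs4, and Rgs16 is lowest with all 3 factors.

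The passage moved with these levels, and passage 5 is replicate 3 alone. Neurog3 itself was at 7.87 to 38.8 CPM in the 5 passage 5 Ngn3-positive samples and at 34.9 to 329 CPM in the 12 of passage 2, and its part in these levels was not tested. Among Ngn3-positive samples, Gng4 was at 16.2 to 156 CPM in the 5 passage 5 samples against 52.1 to 281 and 131 to 617 CPM in replicates 1 and 2, and Gnao1 was at 2.27 to 13.8 against 26.6 to 111 and 17 to 110 CPM. Rgs17 was at 26.4 to 110 CPM in the passage 5 samples with Ngn3 and at 37.7 to 44.6 CPM in the 3 without. In passage 2 samples alone, 13 of the 48 genes were higher and 5 lower, where 10.8% and 10.4% of all genes were called. In passage 5 samples alone, with Ngn3 as the only term, 1.23% of all genes were called higher and 0.6% lower, and Gng4 (log2 fold change 6.62 ± 0.99, adjusted p = 0.00134) and Gnao1 (8.59 ± 1.52, adjusted p = 0.00713) were higher and Rgs16 was lower (-1.49 ± 0.33, adjusted p = 0.0256). Rgs17 was not called there (0.36 ± 0.41, adjusted p = 0.741), nor was Rgs4 (4.81 ± 1.28, adjusted p = 0.0693). Without replicate 2, which leaves 1 replicate from each passage, 9 of the 48 genes were higher and 1 lower (4.28% and 4.4% of all genes), and Gna12, Gnaq, Gng3, Rgs2, Rgs10 and Gnai3 were no longer called.

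Markers of other cell types were set beside these results, since several of the higher genes are known from neurons. Of 8 neuron and glia markers, 7 were tested, 4 were higher and 1 lower with Ngn3, and their summed level was 19 to 1029 CPM with and 0.429 to 19.3 CPM without Ngn3. The neuronal genes Tubb3 (12.1 to 762 CPM) and Snap25 (2.95 to 289 CPM) made up most of it, while Gfap reached 3.58 CPM and Sox10 had no count. The endocrine marker Chga was at 105 to 5360 CPM in the same samples. Of 10 tuft markers, 6 were tested, none was higher and 2 were lower, and Gfi1b had no count. Of 10 acinar markers, 4 were tested, 1 was higher and 1 lower, with summed levels of 2.22 to 49.7 CPM with and 0.617 to 13 CPM without Ngn3. No endothelial or mesenchymal marker was called higher or lower, although their summed levels reached 28.5 and 135 CPM in Ngn3-positive samples (Kdr up to 26.3 and Col1a1 up to 89.9 CPM) against 1.85 and 14.8 CPM without Ngn3, and 1 of 5 immune markers tested was lower. The part of these cell types in the result was not tested.

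The effect of Ngn3 was next taken by partner. With Pdx1, 4 of the 48 genes were higher and none lower, where 1.32% of all genes were called higher and 0.171% lower. With MafA, 4 were higher and 2 lower, where 2.5% and 2.17% of all genes were called. With Pdx1 and MafA, 14 were higher and 4 lower, where 9.42% and 8.4% were called. The comparisons have their own Ngn3-negative samples with the same partner. No Pdx1 sample was from passage 5, whereas the Ngn3 + Pdx1 group held passage 5 samples.

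Gng4, Gnao1, Rgs4 and Rgs17 were called higher with each partner. In Ngn3 + Pdx1 cells the 6 Gng4 values were 18.5, 73.5, 122, 176, 184 and 240 CPM, and in Pdx1 cells 0 to 0.279 CPM (log2 fold change 9.92 ± 1.08, adjusted p = 2.90e-06). In Ngn3 + MafA cells they were 16.2, 29, 52.1, 81.6, 131 and 181 CPM, against 0 to 1.85 CPM in MafA cells (7.46 ± 0.91, adjusted p = 1.01e-05). With all 3 factors the 5 values were 156, 216, 281, 496 and 617 CPM, against 0 to 1.29 CPM in Pdx1 + MafA cells (11.16 ± 0.93, adjusted p = 9.63e-09). The lowest value in each of the Ngn3-positive groups was a passage 5 sample. Without replicate 2, Gng4 was the 1 gene of the 48 still called with Pdx1 and with MafA. In those fits 0.0583% and 0.275% of all genes were called higher and 0.00833% and 0.3% lower.

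Rgs4 had means of 137, 54.6 and 513 CPM in Ngn3 + Pdx1, Ngn3 + MafA and Ngn3 + Pdx1 + MafA cells, against 5.06, 2.13 and 2.06 CPM in the Ngn3-negative cells with the same partners. The log2 fold changes were 5.92 ± 1.33 (adjusted p = 0.0150), 4.56 ± 1.14 (adjusted p = 0.0159) and 9.17 ± 1.27 (adjusted p = 1.18e-05). Gnao1 had means of 38.5, 29.4 and 68.9 CPM in the same cells, and adjusted p of 0.00101, 0.000713 and 5.71e-06, with at most 8 counts in any Ngn3-negative sample. Rgs17 differed little by partner, with log2 fold changes of 2.01 ± 0.48, 1.77 ± 0.44 and 1.90 ± 0.42 and adjusted p of 0.0232, 0.0154 and 0.00205.

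Rgs16 and Rgs2 were called lower with MafA and with Pdx1 and MafA. Rgs16 had means of 67.5 CPM in Ngn3 + MafA and 253 CPM in MafA cells (log2 fold change -1.94 ± 0.56, adjusted p = 0.0427), and of 19.2 and 198 CPM with and without Ngn3 beside both partners (-3.32 ± 0.64, adjusted p = 0.000578). Rgs2 had means of 111 and 504 CPM (-2.00 ± 0.55, adjusted p = 0.0314) and of 56.3 and 272 CPM (-2.35 ± 0.59, adjusted p = 0.00623) in the same comparisons. With Pdx1 alone as partner, Rgs2 values with Ngn3 (27.7 to 520 CPM) spanned those without (134 to 275 CPM). The Pdx1 group held no passage 5 sample, and the passage 5 Ngn3 + Pdx1 samples had the highest values, 279 and 520 CPM. The passage 2 Ngn3 + Pdx1 samples were at 27.7, 126, 183 and 185 CPM. Without replicate 3, Rgs2 was still not called with Pdx1, and the part of passage in this overlap was not tested. Rgs10 and Gnai3 were called lower beside both partners and in neither of the other comparisons by partner, a difference between comparisons that was not tested, with means of 1.77 against 12.8 CPM and 147 against 260 CPM.

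Beside Pdx1 and MafA, Gna11, Gna12, Gnaq, Gnaz, Gnb2, Gng2, Gng3, Gng13, Rgs7 and Rgs9 were also higher. Gnaz was at 11.4, 44.2, 46.5, 47.6 and 84.6 CPM with Ngn3 and at 1.08 to 4.90 CPM without (log2 fold change 3.91 ± 0.62, adjusted p = 5.96e-05). Gng2 had no count in any Pdx1 + MafA sample, so its pooled level was at least 105-fold higher with Ngn3 when set against 3 counts over the group. Gna11 had means of 179 and 89.8 CPM (1.03 ± 0.29, adjusted p = 0.0126), and Gnb2 had means of 187 and 91.0 CPM (1.04 ± 0.30, adjusted p = 0.0165). Without replicate 2 these fits called 4 members higher and 1 lower, beside 1.95% and 1.72% of all genes. Gng4, Gnao1, Rgs4, Gnaz and Rgs16 were the ones kept.

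**Figure D4:**
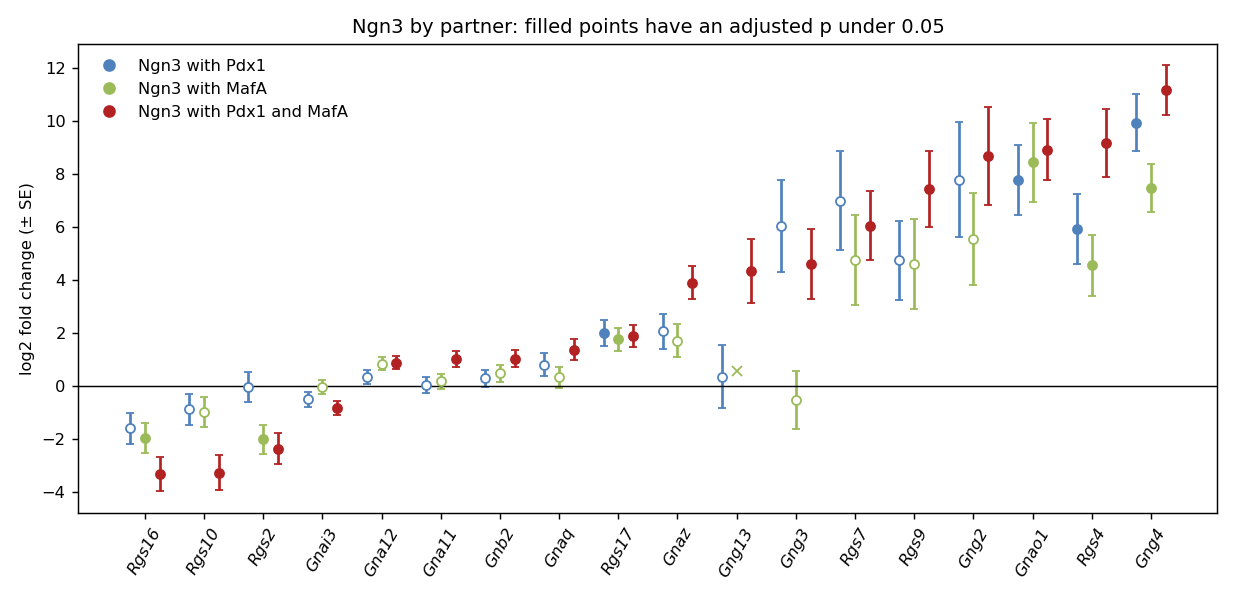
Log2 fold change (vertical axis, ± SE) of Ngn3-positive against Ngn3-negative cells with Pdx1 (blue), MafA (green) or both (red) for the 18 genes called in at least 1 of these comparisons, with filled points for an adjusted p under 0.05 and a cross for a value with no usable SE. Gng4, Rgs4, Gnao1 and Rgs17 are filled in all 3 colours, and Gng4 reaches 11.16 with both partners.

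Whether the effect of Ngn3 differed between the Pdx1 and MafA partners was tested as an interaction, and no gene of the 24004 passed. At an unadjusted p under 0.05 there were 5 of the 48 and 3.42% of all genes, and DESeq2 called none of the 48. Without a gene filter Gna14, Rgs2 and Rgs14 were called in that interaction, where 0.263% of all genes were called higher and 0.141% lower.

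Adding Pdx1 to Ngn3 and MafA gave 4 of the 48 genes higher and none lower, where 1.17% of all genes were called higher and 1.56% lower. Gng4 had a mean of 353 CPM in 5 samples against 81.8 CPM in 6, with overlapping ranges of 156 to 617 and 16.2 to 181 CPM (log2 fold change 2.15 ± 0.59, adjusted p = 0.0461). Gnaz had means of 46.9 and 11.8 CPM (2.22 ± 0.58, adjusted p = 0.0345). Gng12 was at 194, 277, 315, 372 and 388 CPM with all 3 factors and at 170 to 209 CPM with Ngn3 + MafA (0.77 ± 0.20, adjusted p = 0.0367). Gng13, the gamma subunit of taste and olfactory signalling, was at 0.399, 0.521, 2.78, 4.07 and 8.42 CPM with all 3 factors and at 0 to 0.367 CPM with Ngn3 + MafA (adjusted p = 0.0149), with 192 against 6 counts. Its antisense neighbour Chtf18 was at 0 to 5.30 CPM in the Ngn3-positive samples. Without replicate 2 none of these 4 genes was called, and no gene of the 24004 passed in either direction. Rgs4 was not called in the main fit, at 47.6 to 828 CPM with all 3 factors and 2.42 to 121 CPM with Ngn3 + MafA. DESeq2 called Rgs4 higher (log2 fold change 3.29 ± 1.05, adjusted p = 0.0234) and Rgs10 and Rgs16 lower, where it called 3.46% and 4.6% of all genes. With RLE size factors, filterByExpr or all libraries Rgs4 was not called.

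Adding MafA to Ngn3 and Pdx1 gave no call among the 48 genes in the main fit, where 0.525% of all genes were called higher and 1.35% lower. At an unadjusted p under 0.05 there were 14 of the 48 and 15.3% of all genes, and DESeq2 called 3 higher and 3 lower, where it called 1.54% and 4.06% of all genes. The nearest was Gna12, with means of 113 and 61.1 CPM (log2 fold change 0.92 ± 0.25, adjusted p = 0.0553), followed by Gng12 (0.72 ± 0.20, adjusted p = 0.0640) and Rgs2 (-2.03 ± 0.58, adjusted p = 0.0689). The DESeq2 calls were Gna12, Gnaz and Gng12 higher and Rgs2, Rgs10 and Rgs16 lower. Rgs2 and Rgs16 were also lower with all libraries, without the legacy setting, with no gene filter and with a block for the replicate number. They were not called with RLE size factors, filterByExpr or the first technical repeat.

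The phospho-mutant form was compared with wild-type Ngn3 over the 3 Ngn3-positive combinations, 8 against 9 samples. No gene of the 24004 was called, and 2 of the 48 genes had an unadjusted p under 0.05, beside 5.92% of all genes. These were Gnb3 and Gng3, with means of 0.314 and 0.318 CPM in 6SA and 0.009 and 1.87 CPM in WT cells. DESeq2 called none of the 48. Gng4 had means of 201 CPM in 6SA and 162 CPM in WT cells (log2 fold change 0.49 ± 0.47, adjusted p = 1.00). Gnao1 had means of 59.6 and 30.6 CPM (1.10 ± 0.64, adjusted p = 0.884), and Rgs4 of 283 and 162 CPM (0.78 ± 0.72, adjusted p = 0.998). The difference of the Ngn3 effect between 6SA and WT cultures also gave no call. At an unadjusted p under 0.05 there was 1 of the 48 genes, Rgs7, beside 2.7% of all genes, and DESeq2 called none of the 48. For Gng4, replicates of 6SA Ngn3 + MafA alone spanned 16.2 to 181 CPM.

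Without Ngn3, Pdx1 cells and MafA cells were compared in 4 and 5 samples. No gene of the 24004 was called, and 4 of the 48 had an unadjusted p under 0.05, beside 2.81% of all genes. Gna14, a Gq-class alpha subunit named after its values were seen, was at 4.95, 7.82, 34.8 and 42.1 CPM in Pdx1 cells and at 0, 0, 0, 0 and 0.864 CPM in MafA cells. The groups did not overlap, as for Rgs5 (higher with Pdx1) and Rgs17 (lower) among the 48 and for 0.821% of all genes above and 0.312% below. The test of Gna14 gave an unadjusted p of 0.000380 and an adjusted p of 0.957 in edgeR. DESeq2 called Gna14 (log2 fold change 7.72 ± 1.57, adjusted p = 0.00178), as did edgeR without a gene filter (adjusted p = 3.77e-08).

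Several genes varied more between replicates than between conditions. Rgs11, an R7-class member, was at 29.9 to 120 CPM in the 12 samples labelled replicate 1, whether or not Ngn3 was present, and at 0.261 to 28.0 CPM in all but 1 of the other samples. That sample was replicate 2 of 6SA Ngn3 + Pdx1 + MafA, at 124 CPM. Rgs14 (26.8 CPM) and Gng11 (23.1 CPM) each had their highest value in replicate 1 of WT Ngn3 + MafA, and Rgs14 was at no more than 1.61 CPM in Ngn3-negative samples and Gng11 at no more than 1.38 CPM. Rgs19 and Rgs12 were even, with log2 fold changes for Ngn3 of -0.03 ± 0.17 and 0.02 ± 0.25 and adjusted p of 1.00 for both.

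**Figure D5:**
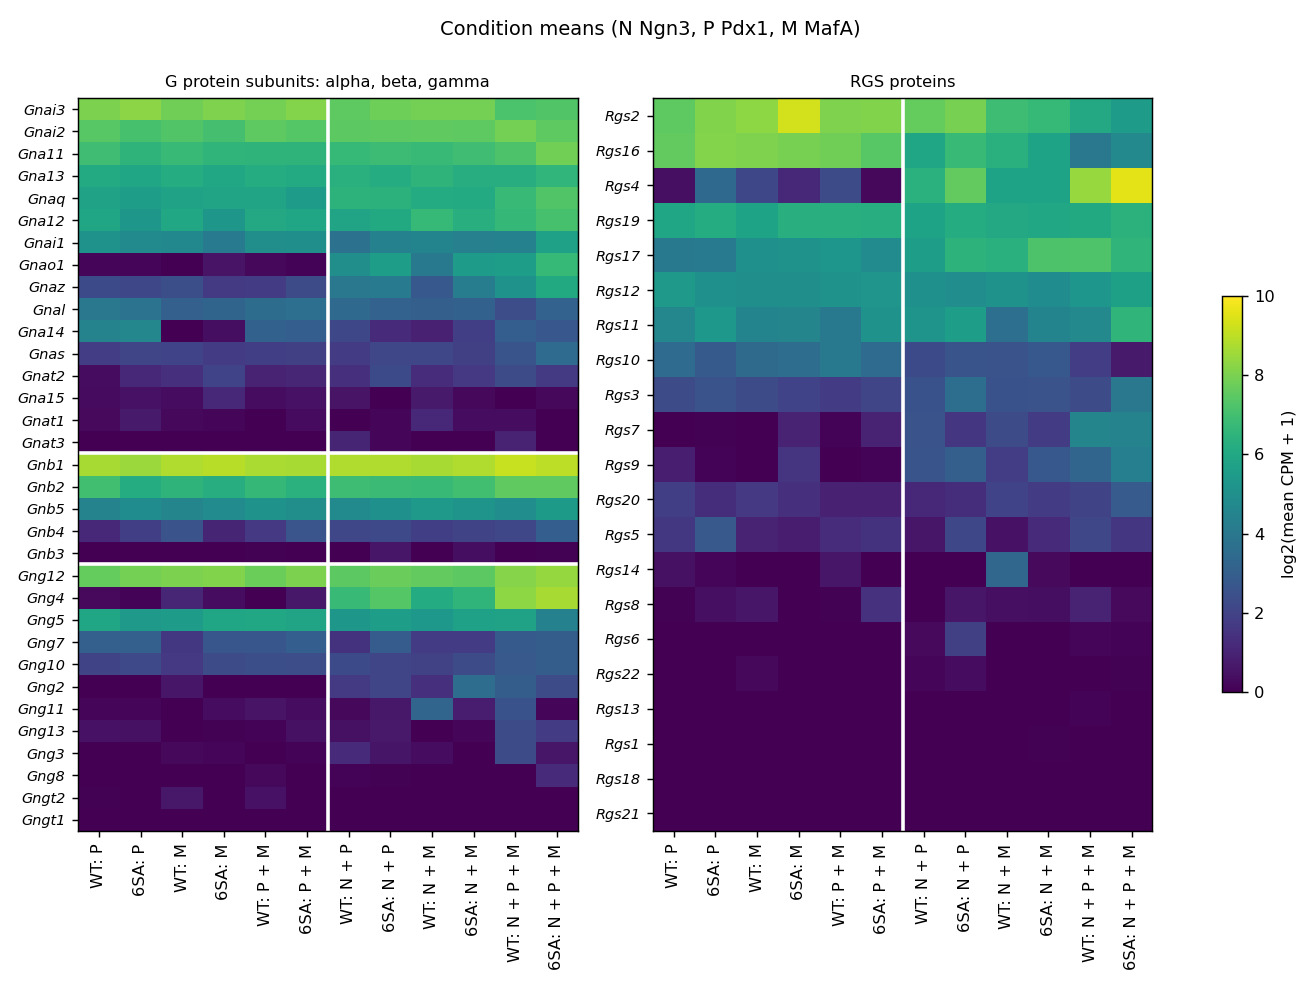
Condition means (colour, log2(mean CPM + 1)) of all 54 genes, with alpha, beta and gamma subunits on the left and RGS proteins on the right, and the 12 conditions in columns (N Ngn3, P Pdx1, M MafA; the white vertical line divides conditions without and with Ngn3). Gnb1, Gnai3, Gnai2 and Gng12 are bright throughout, Gnao1, Gng4 and Rgs4 brighten to the right of the line and Rgs16 and Rgs10 darken.

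A list of 59 genes that work beside the G proteins (effectors, kinases, arrestins and other modulators) was read for the same contrast. Of 53 tested, 14 were higher and 4 lower with Ngn3, beside 11.1% and 10.5% of all genes, with a median log2 fold change of 0.33 beside 0.07 over all genes. On the cyclic AMP side, Rapgef4 (Epac2, a cyclic AMP sensor of islet cells) had means of 79.2 CPM with and 0.148 CPM without Ngn3 (log2 fold change 8.86 ± 0.68, adjusted p = 2.19e-10). Rapgef3, Prkaca and the adenylyl cyclase genes Adcy2, Adcy5 and Adcy9 were also higher, with log2 fold changes of 2.13 ± 0.46, 0.66 ± 0.18, 2.75 ± 0.83, 3.12 ± 0.76 and 2.51 ± 0.57. On the phospholipase C side, Plcb4 was higher, with means of 38.5 and 9.03 CPM (2.04 ± 0.29, adjusted p = 4.63e-06), and Plcb3 was lower (-0.55 ± 0.18, adjusted p = 0.0293).

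Among genes that turn receptors off, the receptor kinases Grk2, Grk3 and Grk5 were higher (log2 fold changes of 0.87 ± 0.20, 1.42 ± 0.51 and 1.22 ± 0.41), and Arrb1, which encodes an arrestin, was lower, with means of 2.74 and 9.27 CPM (-2.46 ± 0.57, adjusted p = 0.00186). Gpr179, an orphan receptor known to anchor R7-class RGS proteins in the retina, had means of 12.1 CPM with and 0.0624 CPM without Ngn3 (adjusted p = 6.71e-06). Gpsm1, Arhgef11 and Rasd2 were also higher and the RGS-domain genes Snx13 and Axin2 lower.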

How the data were processed

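RNA was measured in 50-cell sorted pools by Smart-seq2 with Nextera XT libraries. The authors deposited raw read counts per gene, made with GSNAP on mm10 and HTSeq 0.5.3p3; whether strand was used in counting is not given in the sources used here. Reads with no gene (33.9% to 67.3% of a library's counts) and 92 spike-ins were kept out of library sizes. Libraries needed 1000000 gene counts, at most 25% spike-in and 10000 detected genes, which left out 3 of 61, and technical repeats were summed. Sample groups came from the labels. Genes needed counts in 5 libraries, and 24004 were tested.

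The main test was edgeR 4.0.16 (R 4.3.3; quasi-likelihood, legacy setting, TMM scaling) with 1 model of 12 conditions and Benjamini-Hochberg adjustment over all genes tested. All p-values are two-sided. On counts simulated for the Ngn3 comparison over all backgrounds (23638 genes, 200 changed), it recovered 84% of 4-fold and 100% of 16-fold changes, and 10.7% of its calls were unchanged genes, against 21.5% for DESeq2 1.42.0. The intervals and detection limits cover counting error only. Gene positions and exon overlaps came from the GENCODE annotation of mm10, and promoters from RefSeq. Alternatives were DESeq2, other scaling and filters, a block for the replicate number, the use of all 61 libraries, 1 technical repeat a sample, and leaving out each replicate. Passage 5 alone and edgeR without its legacy setting were added after seeing the data. The genes and lists were chosen with earlier results of these data known. Genes named were those called, the 3 highest by mean CPM in each family, those with no count, and pathway genes called over all backgrounds; others were named after their values were seen.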

Additional observations from a re-analysis of the deposited data

Results flagged for a closer look

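The 3 libraries left out for low depth held 241563 to 625650 gene counts and were all from Ngn3 + Pdx1 + MafA cells. They entered only the alternative that used all libraries. Their levels, as CPM on plain totals, were above the highest Ngn3-negative sample for Gng4, Gnao1 and Rgs4. Gng4 was at 534 CPM in 6SA replicate 2, 183 CPM in 6SA replicate 3 and 420 CPM in WT replicate 2. Gnao1 was at 82.8, 17.1 and 70.3 CPM in the same order. Rgs4 was at 559, 142 and 440 CPM. No condition had 4 samples, so single samples were not tested as standing apart within a condition.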

How the results depend on the processing

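Of 544 comparisons of 48 named gene results with their alternatives, 468 stayed on the same side of the threshold, 76 lost the call and 0 changed direction. For Ngn3 over all backgrounds, the 12 genes higher and 4 lower became 2 and 1 in passage 5 samples alone and 9 to 13 and 1 to 5 on leaving out a replicate. Of all genes, 1.23% and 0.6% were called in passage 5 samples alone. On leaving out a replicate 4.28% to 10.8% of all genes were called higher and 4.4% to 10.4% lower. With Pdx1, 4 higher became 9 with DESeq2, 9 with no gene filter and 1 to 8 without a replicate. The share of all genes called higher went from 1.32% to 3.25%, 2.83% and 0.0583% to 2.66% in that order. The 0 lower became 1 without the legacy setting and 2 with no gene filter, beside 0.658% and 1.25% of all genes. With MafA, 4 higher became 10 with DESeq2, 11 with no gene filter and 1 to 8 without a replicate. The share of all genes called higher went from 2.5% to 4.49%, 3.62% and 0.275% to 3.11% in that order. The 2 lower became 0 to 2 without a replicate and 3 with DESeq2, beside 0.3% to 2.07% and 3.55% of all genes. With both partners, leaving out a replicate gave 4 to 11 higher and 1 to 4 lower, beside 1.95% to 7.68% and 1.72% to 8.6% of all genes. For MafA added, 0 higher became 3 with DESeq2, 2 with RLE size factors, 5 without the legacy setting and 2 with filterByExpr. It became 3 with no gene filter and 0 to 5 without a replicate. Of all genes, 1.54%, 0.575%, 1.72%, 0.874%, 1.58% and 0.00833% to 1.98% were called higher in that order. The 0 lower became 3 with DESeq2, 2 with all libraries, 2 without the legacy setting, 2 with no gene filter and 0 to 3 without a replicate. Of all genes, 4.06%, 1.53%, 1.95%, 3.08% and 0.0583% to 2.93% were called lower in that order. For Pdx1 added, 4 higher became 2 with the first technical repeat, 7 with no gene filter and 0 to 5 without a replicate. Of all genes, 0.646%, 3.16% and 0% to 1.73% were called higher in that order. The 0 lower became 2 with DESeq2, 1 with all libraries, 2 without the legacy setting, 3 with no gene filter and 0 to 2 without a replicate. Of all genes, 4.6%, 2.02%, 3.04%, 3.03% and 0% to 2.95% were called lower in that order. With no gene filter, the interaction of partners gave 1 higher and 2 lower, beside 0.263% and 0.141% of all genes. Pdx1 against MafA gave 1 higher with no gene filter and 1 with DESeq2, beside 0.311% and 0.0833% of all genes. The causes were not tested. RLE size factors moved the all-gene median from 0.07 to 0.15 (log2) over all backgrounds.

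Replicate numbers did not qualify as a pairing: deviations of same-numbered samples correlated at -0.39 to 0.75 (median 0.34) over 14 pairs, 12 over 0.1, where all were required. As a hint from the data, 12 of 14 samples correlated best with their own number. With a replicate block, genes called higher numbered 13 over all backgrounds, 10 with Pdx1, 10 with MafA, 14 with both, 4 for MafA added and 10 for Pdx1 added; lower counts were 4, 0, 2, 4, 2 and 2. Over all genes the block called 14.6%, 3.49%, 5.12%, 12.3%, 2.01% and 4.42% higher and 12.9%, 0.725%, 3.73%, 10.7%, 2.94% and 4.07% lower in the same order.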
